A study of Mus musculus with 6 samples.

Results

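Nuclear receptors that sense lipids turn the fatty acid and sterol content of a cell into changes of transcription. The peroxisome proliferator-activated receptors (PPARs) bind fatty acids and their derivatives and drive genes of fatty acid oxidation and storage, and the liver X receptors (LXRs) bind oxysterols and drive genes of sterol export and fatty acid synthesis. Both bind DNA as heterodimers with a retinoid X receptor (RXR), and the PGC-1 coactivators bind to such receptors and raise the transcription of mitochondrial genes. Adult neural stem cells use fatty acid oxidation, and astrocytes, which resemble them in many genes, supply brain sterols and apolipoproteins.

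The 10 genes described here were taken by name from the 37620 genes counted: Ppara, Ppard and Pparg for the PPARs, Rxra, Rxrb and Rxrg for the RXRs, Nr1h2 (LXR beta) and Nr1h3 (LXR alpha) for the LXRs, and Ppargc1a and Ppargc1b for PGC-1 alpha and beta. They were measured in ribosome-bound mRNA of the adult mouse dentate gyrus, pulled down from labelled cells that include radial glia-like stem cells (RGLs) and astrocytes. There were 3 samples for each of the genotypes Klf9 +/+ and Klf9 f/f. All mice, of both genotypes, carried Gli1CreERT2 and Rpl22HA f/+ (RiboTag), were 2 to 3 months old, and received 3 tamoxifen injections 12 hr apart. Samples were taken 4 days after the last injection, and each was a pool of 6 dentate gyri from 3 mice. In Klf9 f/f mice, Cre recombination can delete Klf9, which encodes a zinc finger transcription factor, and it also switches on the HA-tagged ribosomal protein that is then pulled down. Per the study's methods and text, not every labelled RGL recombines Klf9, so tagged cells can retain it. Both events depend on Gli1CreERT2, which per the study targets both RGLs and astrocytes. The study reads its profile as largely that of RGLs, the progeny of their first division, and astrocytes, so the levels below are not those of RGLs alone.

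The deposited values were counts per gene, with 21594714 to 66343759 reads on genes per sample. The library names placed replicates 1 and 2 of each genotype in a series named YTa22 and replicate 3 of each genotype in a series named YTa32, and the YTa32 libraries were the shallowest, at 27594529 reads or fewer. Klf9, the targeted gene, stood at 200.9, 203.9 and 139.0 CPM (reads on the gene scaled to library size) in Klf9 +/+, against 114.3, 121.3 and 120.0 CPM in Klf9 f/f. The groups did not overlap (p = 0.1 in a two-sided exact permutation test, which 3 samples against 3 cannot go below). All Klf9 f/f samples likewise lay below all Klf9 +/+ samples for 1.35% of all genes tested. In edgeR's quasi-likelihood test Klf9 had a log2 fold change of -0.59 and did not pass adjustment over all genes (adjusted p = 0.844). Reads of the exon that stays after deletion enter the Klf9 count. Cell type markers also differed between the samples. The summed level of the 15 choroid plexus markers ranged from 310.9 to 4300 CPM in Klf9 +/+ and from 128.2 to 839 CPM in Klf9 f/f, and that of the 14 astrocyte markers from 13579 to 17376 CPM and from 16914 to 20142 CPM. The 10 RGL markers tested summed to 2268 to 3023 CPM in Klf9 +/+ and to 2582 to 2832 CPM in Klf9 f/f, and no marker list had a member at 0 in all samples. In such pooled material, fewer cells of a type and less RNA per cell cannot be told apart.

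The 8 receptors share a DNA-binding domain built on zinc fingers, and the sequence coding for the first of them is shown for 7 of them because it shows how close in letters the paralogs compared below are. Each stretch runs over 69 bases, from the codon of the first zinc-binding cysteine to the end of the P-box, the part of the finger that reads the DNA element. It is read from the mm9 genome on the strand of the gene, with exon junctions removed, and capitals mark the last 18 bases, which hold the P-box codons.
Ppara: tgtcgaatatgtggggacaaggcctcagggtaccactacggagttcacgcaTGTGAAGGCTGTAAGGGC
Ppard: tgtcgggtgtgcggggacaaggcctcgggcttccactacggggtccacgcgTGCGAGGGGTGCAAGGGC
Rxra: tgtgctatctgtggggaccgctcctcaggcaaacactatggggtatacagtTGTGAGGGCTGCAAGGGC
Rxrb: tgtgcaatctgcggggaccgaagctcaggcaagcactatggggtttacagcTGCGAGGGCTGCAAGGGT
Rxrg: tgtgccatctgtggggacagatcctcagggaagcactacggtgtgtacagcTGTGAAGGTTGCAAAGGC
Nr1h2: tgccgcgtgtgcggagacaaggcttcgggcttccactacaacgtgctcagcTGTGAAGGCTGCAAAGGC
Nr1h3: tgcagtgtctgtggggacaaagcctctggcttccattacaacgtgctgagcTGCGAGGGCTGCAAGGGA

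The P-box codons differed in letters between the genes but coded for the same residues in all 7 receptors shown. Over the whole stretch, paralogs of a family were identical at 79.71% to 85.51% of bases in 5 pairs, and receptors of different families at 59.42% to 76.81% in 16 pairs. Rxra and Rxrb were the closest, with 10 differing bases, and Nr1h2 and Nr1h3 differed at 14. In the PPARs and RXRs shown the stretch crosses an exon junction, as in Ppara from chr15:85617633 to 85619411 in exons 4 and 5 on the plus strand. In the LXRs it lies in a single coding exon, at chr7:51807470-51807538 for Nr1h2 and at chr2:91032085-91032153 for Nr1h3, both on the minus strand. Despite this likeness, the transcripts can be told apart by reads. Of all distinct 50-base stretches of each transcript set, 0 were shared with another coding gene for 8 of the 10 genes, 8 of 2345 for Rxrg and 9 of 6609 for Ppargc1a. The only exon overlap found with another annotated gene was of 34 bases, or 1.352% of its exon length, between Nr1h3 and Gm13783. Genes absent from the annotation used here, 415 in all, could not be checked for overlap.

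All 10 genes were detected, and their levels spanned a wide range. Levels between genes are given as CPM per kb of exon, after TMM scaling, so that transcripts of different length can be set side by side. The order of the means over the 6 samples ran from Rxrb over Nr1h2, Rxra, Nr1h3, Ppargc1a, Ppargc1b, Ppara, Rxrg and Ppard to Pparg. Rxrb, at 26.8 ± 3.26 CPM per kb (SD, n = 6), stood at the percentile 81.0 of the 15056 genes tested, and Nr1h2, at 20.6 ± 3.22 (SD, n = 6), at the percentile 76.3. The next group held Rxra at 5.43 ± 1.49, Nr1h3 at 5.08 ± 0.357 and Ppargc1a at 4.69 ± 0.745 CPM per kb (SD, n = 6 for each), near the middle of all genes. Ppargc1b stood at 1.91 ± 0.465 and Ppara at 1.29 ± 0.396 CPM per kb (SD, n = 6 for each). Rxrg, Ppard and Pparg stood lowest, at 0.486 ± 0.0848, 0.412 ± 0.181 and 0.396 ± 0.224 CPM per kb (SD, n = 6 for each), and Pparg lay at the percentile 6.37 of the genes tested. Several neighbours in this order did not differ beyond their spread over samples. Rxra was above Nr1h3 in only 2 of 6 samples, Nr1h3 above Ppargc1a in 3 of 6, Rxrg above Ppard in 4 of 6 and Ppard above Pparg in 3 of 6. Ppargc1b was above Ppara in 5 of 6 samples. For each of the other neighbours the order was the same in 6 of 6. Their p was 0.0313 in a two-sided exact sign-flip permutation test, and 0.0703 when adjusted over all neighbours by Benjamini-Hochberg.

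**Figure D1:**
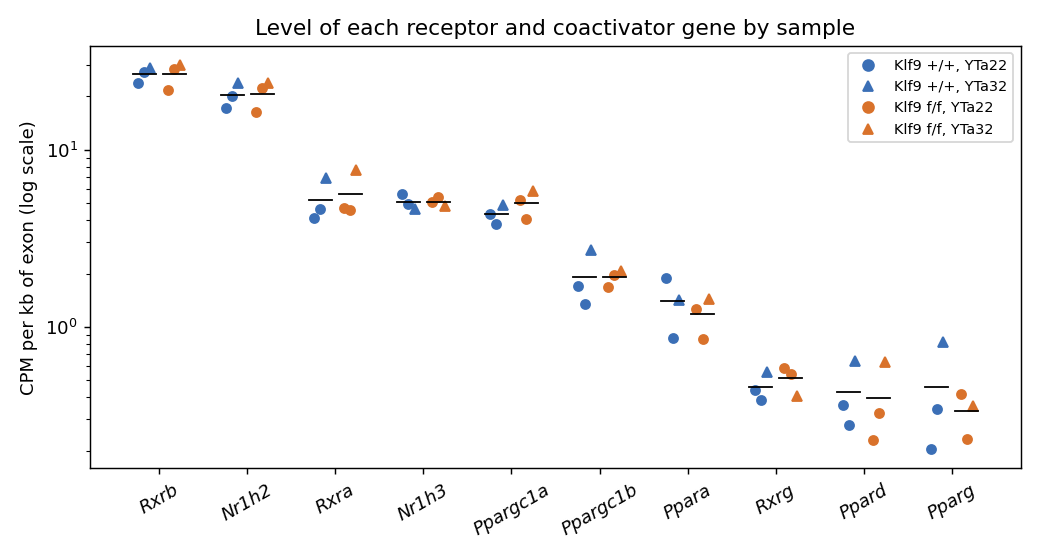
Level of each of the 10 genes in CPM per kb of exon (log axis) by sample, with Klf9 +/+ in blue, Klf9 f/f in orange, circles for the YTa22 and triangles for the YTa32 libraries, and bars at the group means of 3 samples. Rxrb and Nr1h2 sit at the top, near 26.8 and 20.6 CPM per kb on average, and the genotypes overlap for every gene.

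The RXRs, the partners that both other families need, were led by Rxrb, which encodes RXR beta. Rxrb (ENSMUSG00000039656, chr17:34168757-34175338, plus strand, mm9) stood at 23.8, 27.5 and 29.0 CPM per kb in Klf9 +/+, and at 21.8, 28.5 and 30.1 CPM per kb in Klf9 f/f, with replicates 1, 2 and 3 in this order here and below. Replicate 1 was the lowest of its genotype, and the groups overlapped. Rxra (ENSMUSG00000015846, chr2:27531960-27618477, plus strand), which encodes RXR alpha, stood at 4.11, 4.62 and 6.96 CPM per kb in Klf9 +/+ and at 4.70, 4.55 and 7.66 CPM per kb in Klf9 f/f. The YTa32 library was the highest of each genotype. Rxrg (ENSMUSG00000015843, chr1:169528515-169569754, plus strand), which encodes RXR gamma, stood at 0.440, 0.386 and 0.555 CPM per kb in Klf9 +/+ and at 0.585, 0.543 and 0.407 CPM per kb in Klf9 f/f. The groups overlapped, with Klf9 f/f above Klf9 +/+ in the YTa22 libraries and below it in the YTa32 libraries. Rxrb was 5.03-fold above Rxra and 55.4-fold above Rxrg as geometric means of within-sample ratios, each in 6 of 6 samples. Rxrb held 78.8% to 84.8% of the summed RXR level, Rxra 13.6% to 20.1% and Rxrg 1.07% to 2.16%.

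Among the LXRs, Nr1h2, which encodes the widely expressed LXR beta, was above Nr1h3, which encodes LXR alpha. Nr1h2 (ENSMUSG00000060601, chr7:51804986-51809321, minus strand) stood at 17.2, 20.1 and 23.7 CPM per kb in Klf9 +/+ and at 16.4, 22.3 and 23.7 CPM per kb in Klf9 f/f. The groups overlapped, and replicate 1 was the lowest of each genotype. Nr1h3 (ENSMUSG00000002108, chr2:91024218-91042991, minus strand) stood at 5.59, 4.97 and 4.62 CPM per kb in Klf9 +/+ and at 5.05, 5.38 and 4.83 CPM per kb in Klf9 f/f. Of the 10 genes it had the smallest spread in proportion to its mean, and the Klf9 f/f values lay within the Klf9 +/+ range. Nr1h2 was 4.02-fold above Nr1h3 in 6 of 6 samples and held 75.5% to 83.7% of the LXR sum.

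The PPARs were the lowest of the 4 families, and Ppara led them. Ppara (ENSMUSG00000022383, chr15:85565413-85633249, plus strand), which encodes the PPAR of fatty acid oxidation, stood at 1.90, 0.861 and 1.42 CPM per kb in Klf9 +/+ and at 1.27, 0.849 and 1.43 CPM per kb in Klf9 f/f. Replicate 2 was the lowest of each genotype, and the groups overlapped. Ppard (ENSMUSG00000002250, chr17:28369699-28438414, plus strand), which encodes the broadly expressed PPAR delta, stood at 0.362, 0.278 and 0.642 CPM per kb in Klf9 +/+ and at 0.231, 0.326 and 0.635 CPM per kb in Klf9 f/f. The YTa32 library of each genotype lay above all 4 YTa22 libraries. Pparg (ENSMUSG00000000440, chr6:115311239-115440419, plus strand), which encodes the PPAR of fat cell formation, stood at 0.204, 0.342 and 0.823 CPM per kb in Klf9 +/+ and at 0.415, 0.233 and 0.359 CPM per kb in Klf9 f/f. These values rest on 16 to 54 reads a sample, and Klf9 +/+ replicate 3 alone carried Pparg over the filter of 1 CPM. Ppara was 3.24-fold above Ppard and 3.49-fold above Pparg, each in 6 of 6 samples, while Ppard and Pparg could not be ranked (mean log2 ratio 0.10 ± 0.703, SD, n = 6, exact sign-flip permutation test, two-sided, p = 0.719). Ppara held 49.3% to 77.0% of the PPAR sum, Ppard at most 26.2% and Pparg 8.27% to 28.5%.

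Of the coactivators, Ppargc1a was above Ppargc1b. Ppargc1a (ENSMUSG00000029167, chr5:51845488-51958964, minus strand), which encodes PGC-1 alpha, stood at 4.34, 3.83 and 4.86 CPM per kb in Klf9 +/+ and at 5.18, 4.09 and 5.82 CPM per kb in Klf9 f/f. The Klf9 f/f samples reached higher, but replicate 2 of that genotype lay below 2 of the 3 Klf9 +/+ samples. Ppargc1b (ENSMUSG00000033871, chr18:61457790-61560085, minus strand), which encodes PGC-1 beta, stood at 1.70, 1.35 and 2.71 CPM per kb in Klf9 +/+ and at 1.68, 1.96 and 2.06 CPM per kb in Klf9 f/f. The Klf9 f/f values lay within the Klf9 +/+ range, whose ends were replicates 2 and 3. Ppargc1a was 2.49-fold above Ppargc1b in 6 of 6 samples and held 64.2% to 75.6% of their sum.

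The order within families was tested by flipping the sign of the within-sample log2 ratio over the 6 samples. For 7 of the 8 pairs, all but Ppard and Pparg, the ratio had the same sign in 6 of 6 samples (p = 0.0313 in a two-sided exact permutation test, which 6 samples cannot go below, and 0.0357 when adjusted over the 8 pairs by Benjamini-Hochberg). The leading paralog was the same in both genotypes. Rxrb held 82.6% ± 2.83 of the RXR sum in Klf9 +/+ and 81.4% ± 3.09 in Klf9 f/f (SD, n = 3 for each). Nr1h2 held 79.8% ± 4.12 and 80.0% ± 3.36 of the LXR sum, and Ppara 61.5% ± 14.2 and 61.8% ± 3.89 of the PPAR sum (SD, n = 3 for each). Exon length was the union over all annotated transcripts. With the longest transcript as length, the ratios of Rxrb to Rxra, Rxrb to Rxrg and Nr1h2 to Nr1h3 widened. The mean log2 ratio narrowed from 1.70 to 1.34 for Ppara over Ppard and from 1.31 to 1.23 for Ppargc1a over Ppargc1b. The order turned in none of the 8 pairs.

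**Figure D2:**
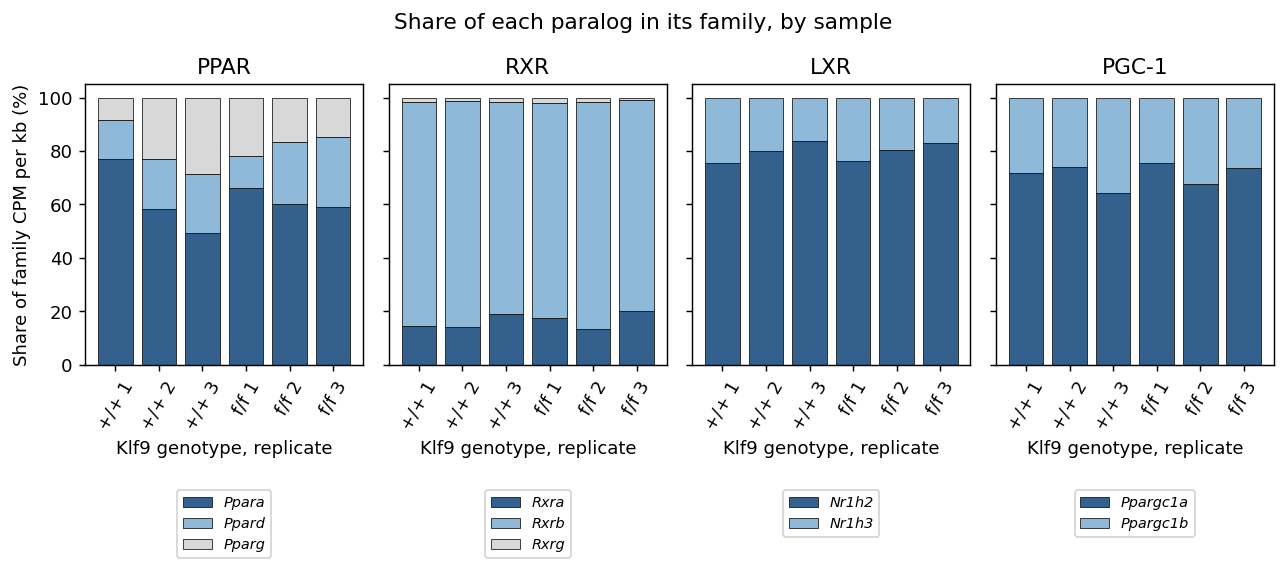
Share of each paralog in the summed CPM per kb of its family (percent) in each of the 6 samples, with a panel for each family and a bar for each sample. Ppara, Rxrb, Nr1h2 and Ppargc1a make up the largest part of their family in every sample, from 49.3% for Ppara in Klf9 +/+ replicate 3 to 84.8% for Rxrb.

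The comparison of Klf9 f/f with Klf9 +/+ asked whether loss of Klf9 alters the receptors themselves. None of the 10 genes passed the threshold of the methods, 1.2-fold with an unadjusted p under 0.05, in the quasi-likelihood test of edgeR, in which the library series was a term, and the count at an unadjusted p under 0.05 alone was also 0. Over all 15056 genes tested, 4.32% passed this threshold, so that a count of 0 among 10 genes is near the background. DESeq2 and edgeR's likelihood-ratio test also called 0 of the 10. The members leaned in neither direction, with 6 higher and 4 lower, and the median of their log2 fold changes was 0.021, against 0.00084 over all genes tested. Their median absolute log2 fold change was 0.12, and that of all genes tested was 0.12. The Klf9 f/f samples lay above those of Klf9 +/+ within both series for 0 of the 10 genes and below them for 0, where 7.78% and 5.53% of all genes tested did. Without regard to series, the 3 and 3 samples overlapped for all 10 genes, while 3.39% of all genes tested were without overlap.

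The intervals were narrower for the abundant receptors than for the rare ones, though not in strict order of level. For Rxrb the log2 fold change was -0.0014, and its 95% interval ran from -0.33 to 0.33. Nr1h2 had 0.034 (-0.31 to 0.38), Nr1h3 0.0085 (-0.35 to 0.37) and Rxra 0.10 (-0.19 to 0.40). For these well-measured receptors, a difference of more than 0.40 on the log2 scale in either direction lies outside the interval. Ppargc1a had the lowest unadjusted p of the 10, 0.187, with a log2 fold change of 0.21 and an interval from -0.12 to 0.54 (edgeR quasi-likelihood adjusted p = 1.00). Ppargc1b had a log2 fold change of 0.042 (-0.46 to 0.55). The PPARs and Rxrg were bounded only loosely. Ppara had a log2 fold change of -0.25 (-0.99 to 0.48), Ppard -0.14 (-0.84 to 0.56), Pparg -0.21 (-1.31 to 0.90) and Rxrg 0.18 (-0.64 to 1.00), and each of these intervals reaches at least 0.48 on the log2 scale in both directions. The sign for Ppara rested on Klf9 +/+ replicate 1, without which its log2 fold change was 0.18. That for Pparg rested on the YTa32 libraries, at 0.823 CPM per kb in Klf9 +/+ and 0.359 in Klf9 f/f. Without Klf9 f/f replicate 3, which leaves only YTa22 to compare the genotypes, the log2 fold change of Pparg was 0.25.

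Within the library series the differences were as small for the abundant receptors and scattered for the rare ones. The log2 difference of Rxrb was -0.037 in YTa22, with 2 samples against 2, and 0.054 in YTa32, with 1 against 1. That of Nr1h2 was 0.039 and -0.00045, and that of Rxra 0.086 and 0.14. Ppargc1a differed in the same direction in both, by 0.17 and 0.26. Pparg differed by 0.22 in YTa22 and by -1.15 in YTa32, Rxrg by 0.43 and -0.43, and Ppargc1b by 0.26 and -0.39. These opposite signs did not pass the test of the difference itself, with interaction p-values of 0.179, 0.306 and 0.225 in the edgeR quasi-likelihood fit (adjusted p = 1.00 for each). None of the 10 genes had an interaction p under 0.05, against 1.53% of all genes tested.

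**Figure D3:**
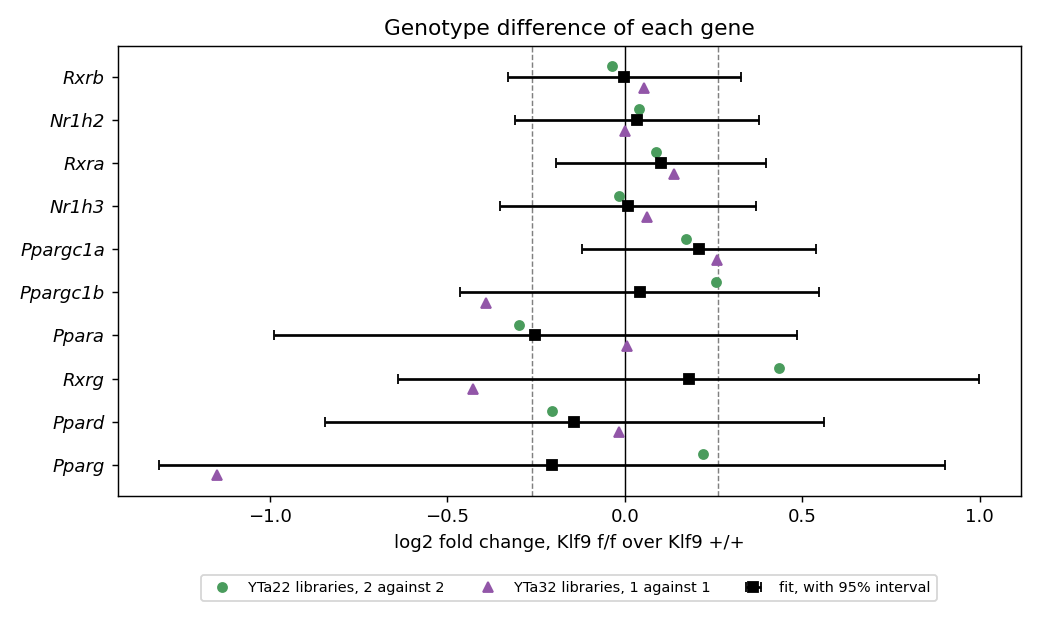
Log2 fold change of Klf9 f/f over Klf9 +/+ for each gene (black squares, with 95% intervals from edgeR's quasi-likelihood test), with the differences within the YTa22 libraries (green circles) and the YTa32 libraries (purple triangles), and dashed lines at 1.2-fold. Every interval includes 0, from the narrow one of Rxra (-0.19 to 0.40) to that of Pparg (-1.31 to 0.90).

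Between the series of libraries, 2 of the 10 genes differed, both higher in YTa32. In the same fit, Ppard was higher in YTa32 by 1.10 on the log2 scale (SE 0.322, edgeR quasi-likelihood adjusted p = 0.0320) and Rxra by 0.70 (SE 0.136, adjusted p = 0.00735). Over all genes tested, 29.5% passed this test, 12.9% higher and 16.6% lower in YTa32, so that 2 of 10 stands near the background. The YTa32 libraries also had fewer reads on genes and a larger share of reads outside annotated genes, 12.63% and 14.01% against 6.85% to 8.41% in YTa22, and the part of these in the result was not tested.

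Genes that PPARs are known to activate leaned upward in Klf9 f/f, while 0 of the 10 receptor and coactivator genes had passed. Of the 30 PPAR targets followed here, 25 were tested, and 4 passed the 1.2-fold threshold upward and 0 downward, where 1.82% of all genes tested passed upward and 2.50% downward. In all, 21 of the 25 had a log2 fold change above 0, as had 50.2% of all genes tested, and the median of the list was 0.19. The list was chosen with earlier results of these data known, so these counts describe it and test nothing. No listed target had an adjusted p under 0.05, the smallest being 1.00. Pdk4, a kinase that turns off pyruvate oxidation when fatty acids are burned, stood at 11.3, 12.6 and 16.1 CPM in Klf9 +/+, while the Klf9 f/f samples had 18.1, 15.4 and 23.2 CPM. The log2 fold change of 0.50 (SE 0.154) had an unadjusted p of 0.00970, the lowest of the list in the edgeR quasi-likelihood test across all genes (adjusted p = 1.00).

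The other targets that passed belong to mitochondria and to the cell surface. Cpt2, which releases fatty acids from carnitine inside mitochondria, averaged 40.6 ± 1.84 CPM in Klf9 +/+ and 51.3 ± 7.88 CPM in Klf9 f/f (SD, n = 3 for each), with a log2 fold change of 0.34. Vnn1, a surface pantetheinase, stood at 14.2, 15.0 and 9.80 CPM in Klf9 +/+, against 18.2, 17.7 and 15.5 CPM in Klf9 f/f, with a log2 fold change of 0.42. Ucp3, a mitochondrial carrier, was rare, at 1.66 ± 0.465 CPM (SD, n = 3) and 3.01 ± 1.33 CPM (SD, n = 3), with a log2 fold change of 0.81. All 4 targets were higher in every Klf9 f/f sample than in Klf9 +/+ within each series, as were 7.78% of all genes tested. The 4 were picked by the fit to these same samples, so their separation is no separate support. The 3 targets of highest level did not pass. Acadl, a long-chain acyl-CoA dehydrogenase, had a log2 fold change of 0.28 (-0.04 to 0.59), and Ech1 and Acaa2, enzymes of the same oxidation, had 0.13 and 0.14.

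The count of 4 depended on the libraries in the fit. It was 1 without Klf9 +/+ replicate 1, 2 without Klf9 f/f replicate 1 and 7 without Klf9 f/f replicate 2. Without the series term it was 0. The count was also 0 without Klf9 f/f replicate 3, without Klf9 +/+ replicate 3 and in the YTa22 series alone. These last settings all compare the genotypes within YTa22 only, so they are nearly the same fit and not separate checks. The median of the list stayed between 0.12 and 0.25 with each library left out in turn. Of the 14 astrocyte markers, 5 also passed the same threshold upward and 0 downward, and the median of their log2 fold changes was 0.36. Of the 15 choroid plexus markers, 14 passed downward, and the median was -2.28. Among the vascular and meningeal markers, 3 of 11 endothelial markers passed downward (summed level 350.4 to 756.8 CPM in Klf9 +/+ and 160.0 to 534.3 CPM in Klf9 f/f), and their log2 fold changes had a median of -0.97. The mural markers passed downward in 5 of 11 cases (summed level 588.9 to 1115 CPM in Klf9 +/+ and 445.5 to 767.3 CPM in Klf9 f/f) and the meningeal markers in 2 of 10 (835.6 to 1786 and 518.9 to 1079 CPM). Their part in the results on this list and on the lists that follow was not tested. Single calls were also fragile, and over the 14 alternatives they held from 3 times for Cpt2, whose unadjusted p was 0.0497, to 10 times for Pdk4.

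**Figure D4:**
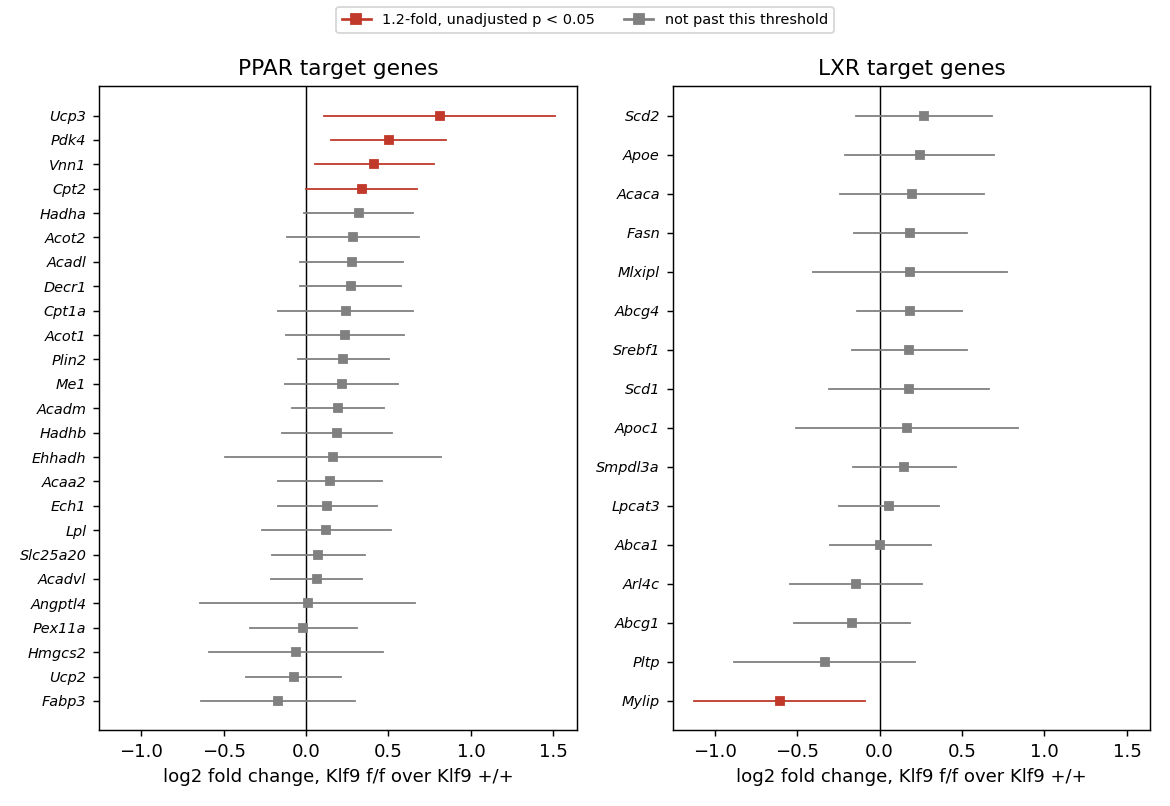
Log2 fold change of Klf9 f/f over Klf9 +/+ with 95% intervals from edgeR's quasi-likelihood test, for the 25 PPAR target genes (left) and the 16 LXR target genes (right) that were tested, ordered by fold change. Red marks genes past 1.2-fold and an unadjusted p under 0.05, which are 4 PPAR targets to the right of 0 and 1 LXR target, Mylip, at -0.61.

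Of the 19 listed LXR targets, 16 were tested, and 0 passed the threshold upward and 1 downward. Of all genes tested, 1.82% passed upward and 2.50% downward. In the list, 12 had a log2 fold change above 0 (median of the list 0.17), as had 50.2% of all genes tested. Mylip, which encodes a ubiquitin ligase that removes the LDL receptor, stood at 8.83, 8.40 and 18.6 CPM in Klf9 +/+, against 7.77, 4.73 and 9.97 CPM in Klf9 f/f. It was lower in each series, as were 5.53% of all genes tested, with a log2 fold change of -0.61 (SE 0.229, edgeR quasi-likelihood adjusted p = 1.00). Klf9 +/+ replicate 3 had the highest Mylip level and also the highest choroid plexus marker sum, 4300 CPM. Without this library the log2 fold change of Mylip was -0.47. The targets of highest level did not pass. Apoe, the main lipid carrier made by astrocytes, averaged 5693 CPM per kb over the 6 samples and had a log2 fold change of 0.24 (-0.21 to 0.70). Scd2, a fatty acid desaturase, had 0.27 (-0.14 to 0.68), and Smpdl3a, a phosphodiesterase, had 0.15.

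Genes that supply or carry the ligands were mixed, with 1 of the 11 tested passing upward, 1 downward, and a median of 0.062 on the log2 scale. Over all genes tested, 1.82% passed upward and 2.50% downward. Cyp46a1, the enzyme that makes the brain oxysterol 24S-hydroxycholesterol, a ligand of LXRs, stood at 78.4, 72.3 and 80.9 CPM in Klf9 +/+, against 104.2, 94.7 and 91.7 CPM in Klf9 f/f. All Klf9 f/f samples lay above all Klf9 +/+ samples, as they did for 2.03% of all genes tested, and the log2 fold change was 0.33 (SE 0.128, edgeR quasi-likelihood adjusted p = 1.00). Cyp46a1 was named because it passed on these same samples, so the lack of overlap is no separate support. Ch25h, which makes another oxysterol, was near the limit of detection, at 1.13, 0.922 and 2.22 CPM in Klf9 +/+, against 0.473, 0.744 and 0.802 CPM in Klf9 f/f. The log2 fold change was -0.98 (-1.86 to -0.10), and Ch25h was lower in each series, as were 5.53% of all genes tested. Only Klf9 +/+ samples exceeded 1 CPM, so Ch25h passed the filter through the group in which it was higher. Its downward call is therefore not independent of the filter and is no support for a difference. The brain fatty acid carriers Fabp7 and Fabp5, the most abundant of the list per kb, had log2 fold changes of 0.062 and -0.077.

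The remaining lists held no gene past the threshold, which 4.32% of all genes tested passed, so that counts of 0 are near the background. Of the 17 receptor coregulators, 17 were tested, with a median of -0.022 on the log2 scale. Gps2, Hdac3 and Ncor1, subunits of the corepressor complex that unliganded receptors recruit and the first 3 of the list by level, had log2 fold changes of 0.088, 0.036 and -0.11. Of the PGC-1 partners and targets, 11 of 12 were tested, with 4 higher, 7 lower and a median of -0.064. Of all genes tested, 50.2% were higher. Sod2, Cycs and Tfam, which act in mitochondria, had log2 fold changes of 0.073, -0.28 and -0.033. Of the 11 other receptors that pair with RXRs, 8 were tested, with a median of 0.023. Thra, the thyroid hormone receptor alpha gene and the most abundant of them per kb, had a log2 fold change of 0.013 (-0.36 to 0.39), and Nr4a1 and Rarb had -0.093 and -0.19.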

How the data were processed

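Per the labels and the methods of the study, the authors aligned reads to mm9 with STAR and deposited raw HTSeq counts for each gene, made without using strand. The STAR version and the gene annotation are not given in the sources used here. The 5 summary lines of HTSeq were left out of library sizes and tests (reads outside genes were 6.85% to 14.01%, ambiguous reads 1.56% to 2.88%). GENCODE M1 of the same build named 37205 of 37620 genes, and gave exon lengths and sequences.

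The filter required more than 1 CPM, taken before TMM, in any 1 sample, and 15056 genes passed, all 10 members among them. The test was edgeR 4.0.16 (glmQLFit, glmQLFTest, R 4.3.3) with genotype and library series (from the library names) as terms, 3 residual degrees of freedom and Benjamini-Hochberg adjustment over all genes tested. Calls followed the methods of the study (1.2-fold, unadjusted p under 0.05). Standard errors are the log2 fold change divided by the square root of F. Within-series differences are of log2 CPM with a prior count of 2. The interaction fit had 2 residual degrees of freedom, so the residual spread of a gene in it comes from YTa22. In both fits the test also draws the spread of each gene toward that of all genes. Paralog ratios were tested by exact sign flips.

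The members and lists were chosen with earlier results of these data known. Named were all members, Klf9 and, of each list, every called gene and the 3 genes of highest CPM per kb. From the lists, 2 genes are not reported here and enter no list count, and nor is 1 receptor sequence. Replicate numbers are running numbers and pair no samples. Per the methods of the study, each sample was a pool of 3 mice, and p-values measure the spread between these pools. Alternatives were DESeq2 1.42.0, the likelihood-ratio test, other scalings and filters, no series term, YTa22 alone, each sample left out, and other lengths for ratios. The statistical steps were tested on simulated data. Plots used matplotlib 3.10.9 and Python 3.11.15.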

Additional observations from a re-analysis of the deposited data

How the results depend on the processing

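None of the 10 genes was called in any alternative in which it was tested, 12 for Pparg (which did not pass the filter in YTa22 alone or without Klf9 +/+ replicate 3) and 14 for each of the others, and the lowest unadjusted p of any was 0.0796, for Ppargc1a. The genes called over the whole table numbered 650 in the reported fit, 213 without the series term, 1439 with every gene that had a count, 365 in the YTa22 series alone, and 385 to 849 with each sample left out in turn. PPAR targets called higher, tested under alternatives chosen after seeing the data, numbered 4 in the reported fit, 0 without the series term, 0 in YTa22 alone, and 0 to 7 with each sample left out. Leaving out either YTa32 library compares the genotypes within YTa22 only, nearly as the fit of YTa22 alone does. Fold changes near 0 changed sign. Rxrb was at 0.0015 and Ppargc1b at -0.013 without the series term. Nr1h3 was at -0.0019 with upper-quartile scaling, -0.0008 with RLE scaling, -0.0017 with DESeq2 and -0.024 in YTa22 alone. With each sample left out, the log2 fold changes ranged from -0.50 to 0.18 for Ppara, -0.27 to 0.0081 for Ppard, -0.64 to 0.25 for Pparg (without the omission in which it was not tested), -0.11 to 0.11 for Rxrb, -0.11 to 0.15 for Nr1h2, -0.035 to 0.067 for Nr1h3 and -0.12 to 0.25 for Ppargc1b. With the longest transcript as length, the mean log2 ratio was -2.67 for Rxra over Rxrb, 6.17 for Rxrb over Rxrg and 2.42 for Nr1h2 over Nr1h3. For Ppara over Ppard it was 1.34 and for Ppargc1a over Ppargc1b 1.23, below the 1.70 and 1.31 with the union of exons. With the union of exons, the mean log2 ratio of Ppard over Pparg ranged from -0.041 to 0.30 with each sample left out. It was -0.039 without Klf9 f/f replicate 3. No paired analysis was possible because the labels carry no replicate numbers shared between genotypes (those used here are running numbers), and the series term stands in the reported fit. Pparg, Ppard and Rxrg are limited by low counts, and YTa32 holds 1 sample per genotype.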

Other observations

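The other receptors that pair with RXRs differed between the series of libraries. Of them, 0 passed the genotype threshold, which 4.32% of all genes tested passed. In the edgeR fit with genotype and series, 6 of the 8 tested were higher in YTa32 at an adjusted p under 0.05 and 0 were lower, where 12.9% of all genes tested were higher and 16.6% lower. Thra stood at 97.4 and 122.9 CPM in the Klf9 +/+ and at 89.1 and 127.2 CPM in the Klf9 f/f libraries of YTa22, against 210.5 and 224.7 CPM in YTa32. The YTa32 libraries were the highest for both genotypes, with a log2 difference of 0.99 (edgeR quasi-likelihood adjusted p = 0.00568). The retinoic acid receptor genes Rara, Rarb and Rarg were higher by 1.42, 0.93 and 1.13 on the log2 scale, and the thyroid hormone receptor beta gene Thrb by 0.78. Nr1i3 was higher by 1.85 but lay between 0.141 and 1.07 CPM. It passed the filter only through a library of YTa32, the series in which it was higher, so its place among the 6 is no support for the difference. The nuclear receptors Nr4a1 and Nr4a2, whose genes are induced by neuronal activity, did not pass, with log2 differences of 0.23 and 0.21. Rara, Rarg and Nr1i3, with Nr4a2 and Thrb, were named after their values were seen.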
